A study of Mus musculus with 18 samples.

Results

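The comparison set 3 libraries taken on day 8 after infection (replicates 1, 2 and 3) against 3 libraries taken on day 2 (replicates 16, 17 and 18), 6 of the 18 RNA sequencing libraries of the series. Libraries were assigned to the groups by the sample titles alone. All 6 came from Balb/c mice aged 8 to 12 weeks, whose submandibular salivary glands were cannulated through the duct with a replication-defective adenovirus 5. The glands were taken at the stated time, and the cells bearing gp38 (podoplanin, the product of Pdpn) were sorted by flow cytometry. Each library has its own mouse number in the labels. Another group, hour 0 (replicates 10, 11 and 12), held gp38+ cells of uninfected Balb/c glands and is used here only as a reference level. No group was cannulated without virus, so the effects of the procedure and of the virus cannot be told apart.

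Gp38+ stromal cells are mostly fibroblasts, which build the connective tissue of the gland and answer infection through interferon and NF-kB signalling. Interferon-stimulated genes encode antiviral proteins and are switched on within hours of sensing viral nucleic acid, while NF-kB targets include the cytokines and chemokines that draw leukocytes into tissue. In salivary glands, adenovirus cannulation is used as a model of tertiary lymphoid structures, lymphocyte aggregates that form around activated fibroblasts (immunofibroblasts), and the series title names the histone demethylase KDM6B in that commitment.

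Total counts were 4398234, 5345881 and 6313619 at day 2 and 12033146, 14041925 and 15234431 at day 8. Besides depth, the groups differed in a low level of counts on genes that these cells should not use. A set of 1502 odorant, vomeronasal and taste receptor genes held 3.16 to 3.36 counts per kilobase of exon at day 2, scaled to a library of 10000000 nuclear counts, and 0.0247 to 0.0287 at day 8. Hour 0 and day 1 libraries were also high, at 1.17 to 1.87 and 0.549 to 1.14, though below day 2. Hour 3 and day 23 libraries were low, at 0.0417 to 0.0611 and 0.0159 to 0.0286. The set of libraries and the time point therefore cannot be told apart when day 8 is compared with day 2 or with hour 0. Comparisons of day 2 with hour 0 also span a smaller difference in background. Only genes with at least 5 CPM (counts scaled to a common library size) in at least 3 of the 6 libraries were tested, 13248 genes in all. Where the libraries of 1 group alone would not have met this filter, a gene passed through those of the other group. The direction of its change is then not independent of the filter. Mitochondrial genes took 5.84% ± 0.505 of counts at day 2 and 14.6% ± 1.56 at day 8 (SD, n = 3 each).

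In the main test, most listed interferon and inflammatory genes fell between day 2 and day 8. In the same test, most listed gland secretory, epithelial, contractile, MHC class II and resting fibroblast genes that were tested rose. Over all genes tested, 3224 were higher at day 8 (24.3%) and 3333 were lower (25.2%) at an edgeR adjusted p under 0.05. These shares are the background for counts of list members between day 2 and day 8 in the main test. Against hour 0 the shares were 13.2% higher and 18.2% lower at day 2, and 15.0% and 19.6% at day 8. List counts with library totals belong beside the 1439 higher and 5703 lower genes of that scaling. In these bulk samples, fewer cells of a type and less RNA per cell cannot be told apart. The libraries of the groups did not overlap in 9169 genes (69.2%). The median log2 fold change over all genes tested was 0.01. Large falls outnumbered large rises: 1158 called genes were lower by a log2 fold change of at least 3, and 224 were higher by as much. Among the 3333 lower genes, 1901 had a day 2 level of at least 10 times the receptor gene background, 57.0% against 69.7% of all genes tested. The balance of rises and falls depended on the scaling. With library totals in place of TMM factors the log2 fold changes moved by -0.49 at the median, 1439 genes were higher and 5703 lower, and with the size factors of DESeq2 they moved by -0.12, with 2674 higher and 3749 lower.

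**Figure D1:**
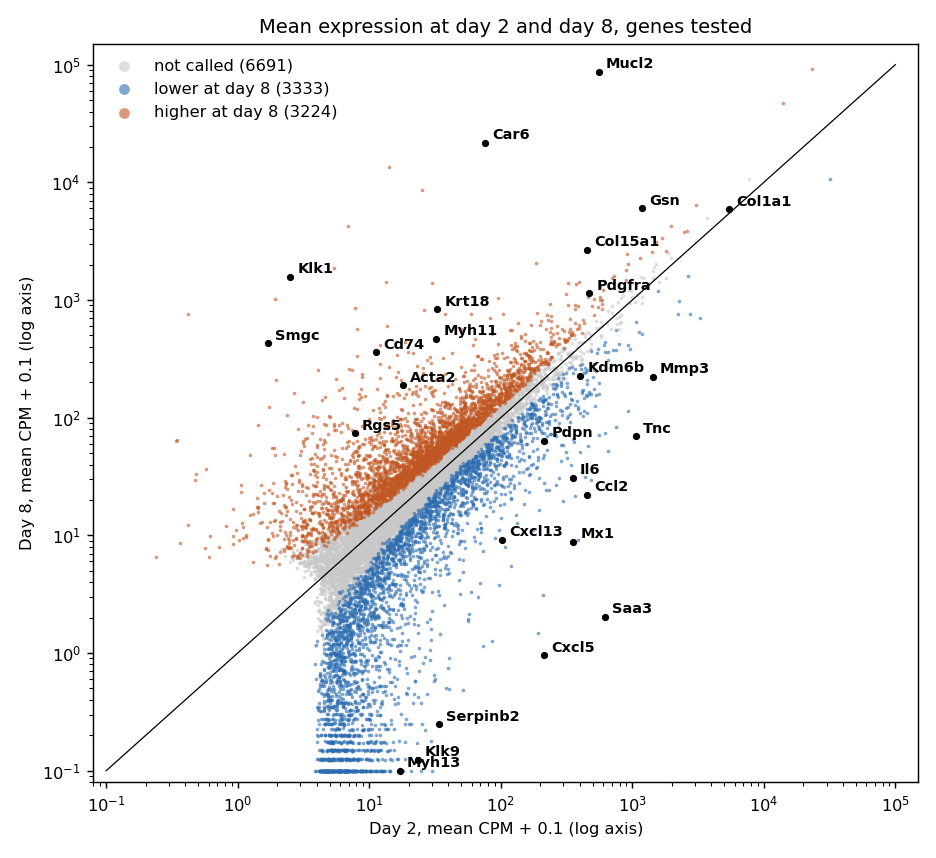
Mean CPM of each gene tested at day 2 (x axis) and day 8 (y axis), both log axes with 0.1 added, coloured by the edgeR call; the line marks equal levels. Secretory genes such as Mucl2 and Car6 lie far above the line, Saa3 and Cxcl5 far below it, and a band of low genes at day 2 lies near 0 at day 8.

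Type I interferon-stimulated genes fell together. Of 30 listed genes, all of them tested, 27 were lower at day 8, none was higher, and the median log2 fold change was -2.32. Mx1, a gene of the Mx GTPase family (chr16:97447035-97462907), fell the most of the list. Its levels were 461, 324 and 283 CPM in the 3 day 2 libraries and 12.7, 5.74 and 7.62 CPM at day 8, a log2 fold change of -5.36 (SE 0.31, edgeR adjusted p = 2.9e-10). Ifit3, a member of the IFIT family of antiviral RNA-binding proteins, had the highest level per length of the list at 778, 666 and 819.8 CPM at day 2, and stood at 106, 58.5 and 83.6 CPM at day 8, a log2 fold change of -3.19 (SE 0.24, edgeR adjusted p = 4.4e-09). In both genes every day 8 library lay below every day 2 library. Isg15, a ubiquitin-like modifier, went from 154, 142 and 156 CPM to 23.6, 12.5 and 18.9 CPM, and Rsad2 (viperin) from 797, 669.8 and 498 CPM to 63.7, 41.6 and 51.8 CPM. Their log2 fold changes were -3.04 (SE 0.27, edgeR adjusted p = 2.8e-08) and -3.64 (SE 0.25, edgeR adjusted p = 1.2e-09). Irf9, which encodes a DNA-binding part of the factor ISGF3, did not pass the test: it had 73.2, 76.0 and 66.5 CPM at day 2 and 72.7, 63.3 and 63.2 CPM at day 8 (log2 fold change -0.12, SE 0.16, edgeR adjusted p = 0.57).

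Part of the list was still above uninfected glands at day 8. Against hour 0, 30 of 30 genes were higher at day 2 (13.2% of all genes tested), and 14 were higher and 1 lower at day 8 (15.0% and 19.6% of all). The comparisons share libraries, so their values are given side by side only. The median log2 fold change against hour 0 was 2.98 at day 2 and 0.38 at day 8. Mx1 was the 1 gene lower than hour 0, where its levels were 15.7, 18.3 and 12.8 CPM, and Oas3, a sensor of double-stranded RNA, stood highest above it, with 1.68 CPM on average at hour 0 and 8.83 CPM at day 8, a log2 fold change of 2.45 (SE 0.44, edgeR adjusted p = 0.00029).

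Promoter windows of 250 bases before to 50 bases after the start were found for 27025 genes in RefSeq (build GRCm38.p6) and searched on both strands for TTTCNNTTTC, the core of the interferon-stimulated response element (ISRE) to which ISGF3 binds. Overlapping matches were counted. It was present in 3.99% of all genes with a window and in 13 of 22 listed type I interferon-stimulated genes with one (59.1%), and in 10 of 18 interferon-gamma-responsive and 5 of 16 MHC class I genes with a window. The 250 bases before the start are shown for a pair of genes of the type I list that fell, Ifit3 (plus strand, chr19:34583279-34583528) and Isg15 (minus strand, chr4:156200819-156201068), with matches in capitals. In Ifit3 there are 2 separate matches, and in Isg15 there are 3, which overlap in one block and lie on the opposite strand of the printed one.
Ifit3: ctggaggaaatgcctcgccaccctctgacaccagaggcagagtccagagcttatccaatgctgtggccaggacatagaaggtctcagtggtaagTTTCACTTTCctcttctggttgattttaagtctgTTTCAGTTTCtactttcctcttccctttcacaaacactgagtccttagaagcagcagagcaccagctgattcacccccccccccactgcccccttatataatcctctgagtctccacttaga
Isg15: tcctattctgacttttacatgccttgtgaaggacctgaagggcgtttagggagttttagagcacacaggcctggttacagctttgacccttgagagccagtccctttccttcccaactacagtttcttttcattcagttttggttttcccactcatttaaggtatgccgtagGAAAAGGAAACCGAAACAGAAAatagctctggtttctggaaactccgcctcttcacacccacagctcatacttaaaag
A match is a description of the letters and not evidence that a factor was bound.

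Interferon-gamma-responsive genes fell less uniformly. Of 26 tested genes of 27 listed, 16 were lower, 1 was higher and 9 were not called, with a median log2 fold change of -0.99. Cxcl10, a chemokine for activated T cells, fell from 359, 304 and 279 CPM to 79.8, 31.3 and 42.5 CPM, a log2 fold change of -2.62 (SE 0.33, edgeR adjusted p = 2.2e-06). Gbp2, a guanylate-binding protein, fell from 665, 631 and 788 CPM to 388, 192 and 266 CPM (log2 fold change -1.30, SE 0.34, edgeR adjusted p = 0.0029). Cxcl9, which signals through the same receptor as Cxcl10, was 88.2, 64.5 and 105 CPM at day 2 and 119.7, 48.6 and 72.9 CPM at day 8, overlapping groups with a log2 fold change of -0.10 (SE 0.46, edgeR adjusted p = 0.88). The highest day 8 value of Cxcl9, Cxcl10 and Gbp2 was in replicate 1 each time. The 1 gene that rose was Irf8, a transcription factor of myeloid cells, from 17.2, 16.8 and 15.4 CPM to 55.5, 29.2 and 35.9 CPM (log2 fold change 1.29, SE 0.48, edgeR adjusted p = 0.031), and this call was lost without day 8 replicate 1 (adjusted p = 0.129) and without any 1 of the day 2 libraries (adjusted p = 0.0672, 0.0997 and 0.113). Against hour 0, 24 of the 26 were higher at day 2 and 21 were higher at day 8. Cxcl9 averaged 9.65 CPM at hour 0, and its log2 fold change at day 8 against hour 0 was 3.03 (SE 0.52, edgeR adjusted p = 0.00017).

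Inflammatory cytokines and NF-kB targets fell almost throughout. Of 28 tested genes of 30 listed, 25 were lower, 1 was higher and 2 were not called, with a median log2 fold change of -2.09. Saa3, an acute-phase protein (chr7:46711998-46715700), had 905, 545 and 403 CPM at day 2 and 3.24, 0.982 and 1.58 CPM at day 8, the largest fall of the list with a log2 fold change of -8.32 (SE 0.54, edgeR adjusted p = 7.4e-10). Cxcl5, a chemokine for neutrophils (chr5:90759360-90761624), had 242, 217 and 182 CPM and 1.47, 0.453 and 0.647 CPM, a log2 fold change of -7.95 (SE 0.50, edgeR adjusted p = 6.4e-10). Both passed the 5 CPM filter only through the day 2 libraries. The day 8 levels of both were near those of hour 0, where Saa3 had 0.898, 0.831 and 2.86 CPM and Cxcl5 had 0.399, 1.54 and 1.51 CPM.

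Other cytokines fell from similar day 2 levels to higher day 8 levels. Ccl2, which attracts monocytes, went from 513, 420.4 and 419 CPM to 33.7, 12.2 and 20.3 CPM (log2 fold change -4.35, SE 0.47, edgeR adjusted p = 3.2e-07), and Il6, a cytokine that supports B cells and plasma cells, from 526, 358 and 174 CPM to 45.3, 18.6 and 28.7 CPM (log2 fold change -3.51, SE 0.57, edgeR adjusted p = 3.8e-05). Il6 spread widely among the day 2 mice, yet the lowest day 2 value exceeded the highest day 8 value. Tnfaip3 (A20) and Nfkbia, feedback inhibitors of NF-kB, fell and were still above hour 0. Tnfaip3 had 677, 591 and 319.6 CPM at day 2 and 215, 126 and 127 CPM at day 8 (log2 fold change -1.76, SE 0.34, edgeR adjusted p = 0.00024), and its log2 fold change at day 8 against hour 0 was 1.85 (SE 0.35, edgeR adjusted p = 0.00041). Il1b was the 1 gene higher at day 8, with 9.62, 10.8 and 9.17 CPM and 22.6, 21.0 and 16.6 CPM (log2 fold change 1.02, SE 0.38, edgeR adjusted p = 0.032). Its call was lost without day 8 replicate 1 or 2 (adjusted p = 0.0879 and 0.0755) and without any 1 of the day 2 libraries (0.0805, 0.0842 and 0.121). Against hour 0, 26 of the 28 were higher at day 2 and 11 at day 8, with none lower.

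A motif bound by NF-kB, the kappa-B motif, was found in the windows of 12 of 22 listed inflammatory genes (54.5%) and in 9.55% of all genes with a window, both strands searched. The CArG box, the motif of serum response factor, was found in 1 of 11 contractile genes with a window and in 1.81% of all. The 250 bases before the start are shown for Il6 (plus strand, chr5:30012864-30013113) and Cxcl1 (plus strand, chr5:90890995-90891244), a chemokine gene close to Cxcl5 on the same chromosome, with the matches in capitals.
Il6: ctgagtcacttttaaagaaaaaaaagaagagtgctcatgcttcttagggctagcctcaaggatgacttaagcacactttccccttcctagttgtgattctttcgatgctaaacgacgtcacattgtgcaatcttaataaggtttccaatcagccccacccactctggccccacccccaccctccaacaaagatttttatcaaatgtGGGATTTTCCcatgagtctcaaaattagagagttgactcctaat
Cxcl1: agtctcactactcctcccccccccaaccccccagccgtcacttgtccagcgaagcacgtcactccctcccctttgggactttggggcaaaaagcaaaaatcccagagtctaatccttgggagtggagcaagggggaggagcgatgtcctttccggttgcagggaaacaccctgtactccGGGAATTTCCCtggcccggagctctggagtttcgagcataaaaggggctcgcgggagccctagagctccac
Il6 holds 1 match and Cxcl1 holds 2 that overlap. Cxcl1 had 388, 295 and 186 CPM at day 2 and 72.6, 50.01 and 51.7 CPM at day 8, a log2 fold change of -2.32 (SE 0.30, edgeR adjusted p = 2.9e-06).

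**Figure D2:**
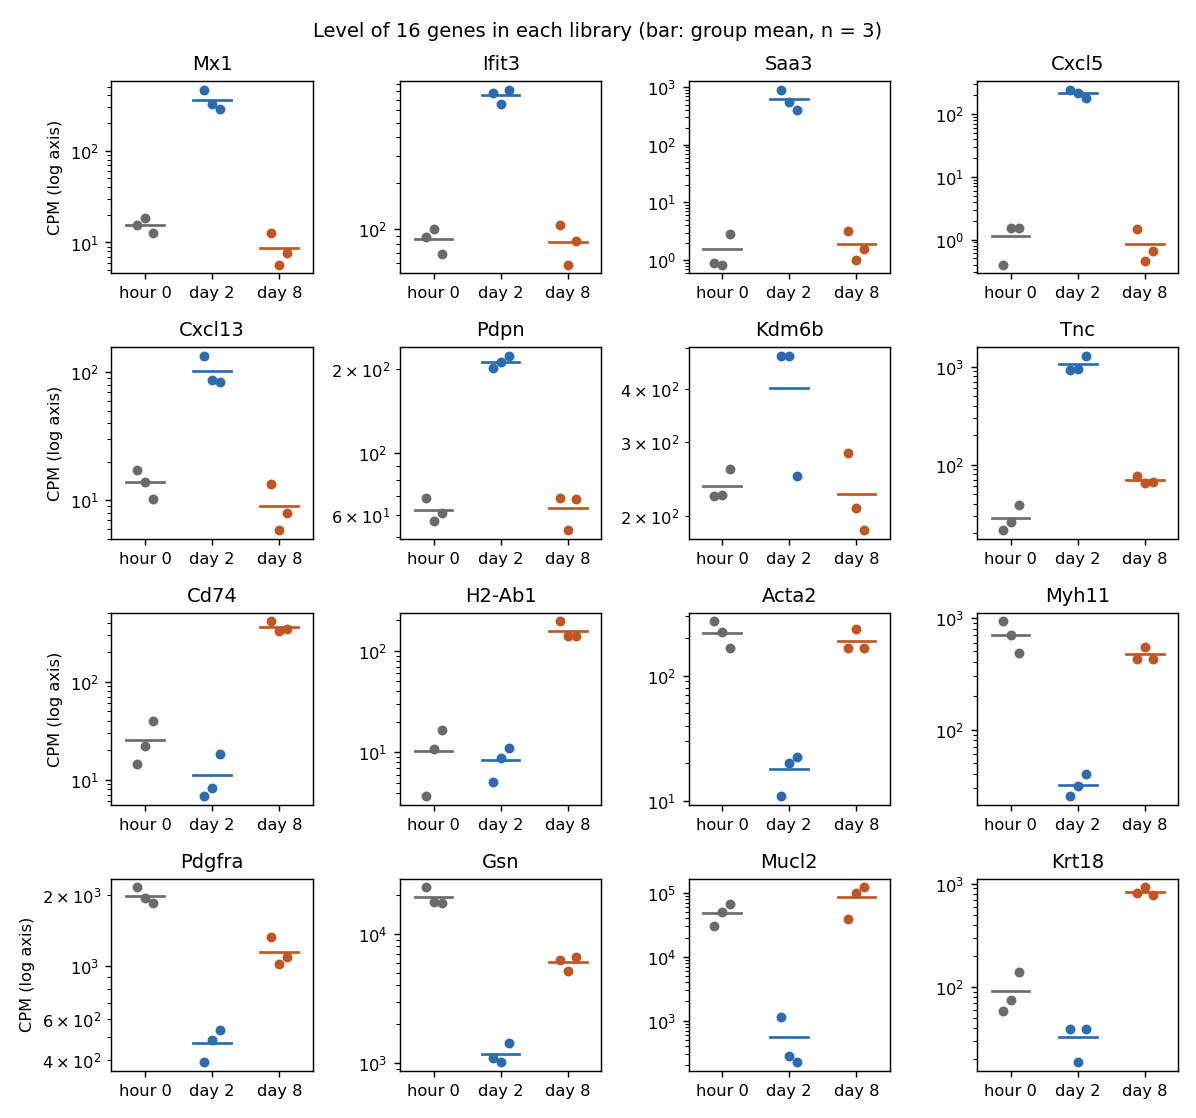
CPM of 16 genes in each library of hour 0, day 2 and day 8 (log axis, a scale of its own in each panel; points are libraries, bars are means of 3). Mx1, Saa3 and Cxcl5 peak at day 2, Cd74 and Krt18 are highest at day 8, and Acta2, Myh11 and Mucl2 are lowest at day 2 of these 3 groups.

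Large falls occurred both in the lists and outside them. Among genes eligible under the naming rule (called, groups not overlapping) with at least 10 CPM on average at day 2 and also at hour 3, a time point outside the comparison with a low background, the 12 largest falls were in Saa3, Cxcl5, Cxcl3, Serpinb2, Prg4, Saa1, Slfn4, Csf3, Fgf23, Timp1, Mx1 and Acod1. This selection was made after the values were seen. Saa3, Cxcl5, Csf3, Timp1 and Mx1 belong to the lists, and the others do not. All but Timp1 and Mx1 passed the 5 CPM filter only through the day 2 libraries. Prg4, which encodes the lubricating glycoprotein lubricin, had 141, 152 and 284 CPM at day 2 and 1.70, 0.68 and 1.72 CPM at day 8 (log2 fold change -7.12, SE 0.50, edgeR adjusted p = 1.6e-09). Acod1, the enzyme that makes itaconate, had 28.3, 31.3 and 26.7 CPM and 0.694, 0.604 and 1.01 CPM (log2 fold change -5.20, SE 0.59, edgeR adjusted p = 5.5e-07). Fgf23, a phosphate-regulating hormone made mainly in bone, had 48.8, 30.1 and 13.8 CPM and 1.00, 0.227 and 0.431 CPM (log2 fold change -5.77, SE 0.67, edgeR adjusted p = 7.7e-07). Cxcl3, near Cxcl5 on the same chromosome (chr5:90786103-90789600), had 323 counts over the day 2 libraries and 2 over the day 8 libraries, a ratio of 294 with an exact 95% interval of 80.8 to 2439 for counting error only. Saa1 and Saa3, like the Ifit3 and Ifit3b pair, belong to families of related genes, as do the Gbp, H2 and Scgb genes, and members differ in how alike they are. How reads were divided between similar members, and whether strand was used in counting, is not given in the sources used here. Values of single members of these families are therefore uncertain to a degree that was not tested.

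A different group of genes fell to 0 or nearly 0 counts at day 8 from mean levels of 10.2 to 23.3 CPM. By the rule for the largest falls, which asked for a day 2 level of at least 10 times the receptor gene background, these were Myh13, Myh3, Smok2a, Tcp10c, Duxf3, Klk9, Mybpc1 and Ccdc180. Each of them passed the 5 CPM filter only through the day 2 libraries. Myh13, a myosin of extraocular muscle, had 13.0, 16.5 and 21.2 CPM at day 2 and 0 counts in each day 8 library, which makes it at least 233-fold lower against a floor of 3 counts over the group. At hour 0 it had 5.49, 7.96 and 2.19 CPM, and its mean at hour 3, in the set of libraries with a low background, was 0.0407 CPM. The other 7 genes likewise had counts in the hour 0, day 1 and day 2 libraries on average, and at most 1 count over the 3 day 8 libraries. At hour 3, 6 of them averaged under 0.1 CPM, the exception being Klk9 with 7.47 CPM. Smok2a, Tcp10c, Duxf3 and Myh3 were at 0 counts at day 8 and at least 150.5, 138, 135 and 188-fold lower by the same floor, and Klk9, Mybpc1 and Ccdc180 had 1 count each. The ratio for Klk9 was 961.5, with an exact 95% interval of 172 to 38050 for counting error only. Restricting the test to the 10916 genes that also reached 5 CPM in at least 3 libraries of the low-background set, a restriction added after the data were seen, gave 2266 higher and 2283 lower genes, and its fold changes were lower by 0.20 on the log2 scale at the median.

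MHC class I genes, whose products display peptides to CD8 T cells, were mostly above uninfected glands at both times and mostly not called between day 2 and day 8. Of 18 listed genes, all tested, 4 were higher, 2 lower and 12 not called, with a median log2 fold change of -0.11. With library totals 1 was higher and 10 lower, and the number of higher genes fell to 1 without day 2 replicate 16 or day 2 replicate 17, and to 2 without day 8 replicate 1 or day 8 replicate 3. H2-K1, a classical heavy chain, had 1745, 1623 and 2024 CPM at day 2 and 2904, 2366 and 2545 CPM at day 8 (log2 fold change 0.54, SE 0.21, edgeR adjusted p = 0.039). B2m, the common light chain, had 1305, 1064 and 1171 CPM and 1144, 932 and 1090.0 CPM, overlapping groups with a log2 fold change of -0.16 (SE 0.20, edgeR adjusted p = 0.53). Against hour 0, 13 of the 18 were higher at day 2 and 15 at day 8, and B2m at day 8 had a log2 fold change of 0.94 (SE 0.20, edgeR adjusted p = 0.0013) against hour 0.

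MHC class II genes, whose products display peptides to CD4 T cells, rose from low levels. Of 10 listed genes 7 were tested, 5 were higher, none was lower, and the median log2 fold change was 3.88. Cd74, the invariant chain, had 6.75, 8.27 and 18.5 CPM at day 2 and 411, 328 and 340.3 CPM at day 8, a log2 fold change of 4.98 (SE 0.54, edgeR adjusted p = 3.6e-07). H2-Ab1, a class II beta chain, had 5.06, 8.81 and 11.1 CPM and 195, 140.1 and 141 CPM (log2 fold change 4.23, SE 0.60, edgeR adjusted p = 7.9e-06), and Ctss, the protease that cleaves the invariant chain, had 6.58, 4.47 and 7.34 CPM and 99.1, 94.7 and 77.0 CPM (log2 fold change 3.87, SE 0.30, edgeR adjusted p = 5.9e-09). Ciita, the activator of class II transcription, had 5.23, 9.35 and 8.71 CPM and 17.7, 11.1 and 10.4 CPM and was not called (edgeR adjusted p = 0.38). At hour 0 Cd74 had 14.5, 22.2 and 39.5 CPM, and 0 of the 7 genes were called at day 2 against hour 0, while 6 were higher at day 8.

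Macrophage and dendritic cell markers were measured beside the class II genes. Of 20 listed macrophage, monocyte and dendritic cell genes 13 were tested, 7 were higher, none was lower and 6 were not called, with a median log2 fold change of 1.48. With library totals, and with the size factors of DESeq2, 7 were higher and 1 was lower. The summed level of all 20 was 83.4 to 92.3 CPM at day 2 and 221 to 283 CPM at day 8, and none of the 20 was at 0 in either group. Lyz2 (lysozyme) had 3.71, 3.12 and 4.81 CPM at day 2 and 47.8, 47.4 and 43.3 CPM at day 8 (log2 fold change 3.56, SE 0.50, edgeR adjusted p = 7.0e-06), C1qb (complement C1q) had 1.35, 2.30 and 0.802 CPM and 19.7, 19.3 and 16.7 CPM (log2 fold change 3.65, SE 0.53, edgeR adjusted p = 1.1e-05), and Ptprc (CD45, carried by leukocytes) had 9.45, 11.2 and 10.9 CPM and 51.5, 36.3 and 33.2 CPM (log2 fold change 1.93, SE 0.37, edgeR adjusted p = 0.00019). Lyz2 and C1qb passed the 5 CPM filter only through the day 8 libraries, so the direction of their change is not independent of the filter. The part of macrophages and dendritic cells in the rise of the class II genes was not tested.

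**Figure D3:**
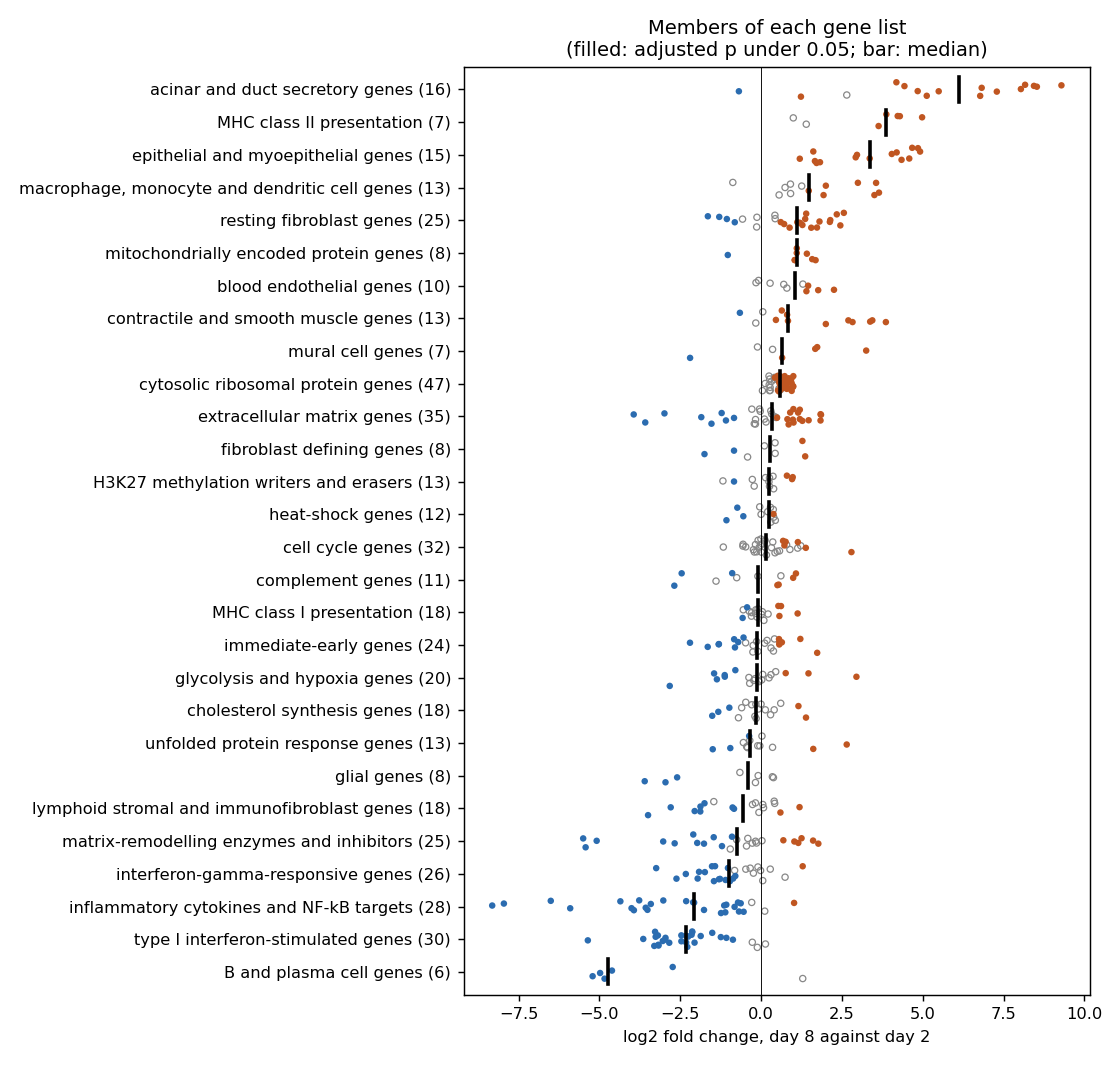
log2 fold change of the tested members of each list with at least 5 tested members, day 8 against day 2; filled points passed the test, open points did not, and bars are list medians (the number of tested members stands in brackets). Interferon and inflammatory lists lie to the left, and secretory, epithelial and MHC class II lists to the right.

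More lymphoid stromal and immunofibroblast genes fell than rose. Of 24 listed genes 18 were tested, 8 were lower, 2 higher and 8 not called, with a median log2 fold change of -0.55. Pdpn itself, the gene of the sorting marker, had 202, 213 and 224 CPM at day 2, 68.8, 52.8 and 68.3 CPM at day 8 and 68.8, 57.2 and 61.0 CPM at hour 0, and its fall had a log2 fold change of -1.75 (SE 0.23, edgeR adjusted p = 3.2e-06). Cxcl13, the chemokine that places B cells in follicles, went from 135, 86.7 and 84.4 CPM to 13.3, 5.82 and 7.98 CPM (log2 fold change -3.49, SE 0.35, edgeR adjusted p = 1.3e-07), and its hour 0 levels were 17.2, 14.0 and 10.3 CPM. Ccl19, which guides T cells and dendritic cells, was too low to be tested, with 4.72, 2.44 and 2.98 CPM at day 2 and 1.47, 0.227 and 1.01 CPM at day 8. Ch25h and Cyp7b1, enzymes that make and process oxysterols guiding lymphocytes, fell with log2 fold changes of -2.79 (SE 0.43, edgeR adjusted p = 1.8e-05) and -1.88 (SE 0.24, edgeR adjusted p = 2.0e-06). The genes that rose were Enpp2 (autotaxin), from 229, 228 and 253 CPM to 549, 486 and 585 CPM (log2 fold change 1.19, SE 0.21, edgeR adjusted p = 9.6e-05), and Fap (log2 fold change 0.60, SE 0.19, edgeR adjusted p = 0.011). Vcam1 and Icam1, adhesion molecules for leukocytes, were not called: Vcam1 had 167, 147 and 154 CPM and 167, 96.0 and 126 CPM. Against hour 0, 9 of the 18 were higher and 3 lower at day 2, and 2 were higher and 3 lower at day 8.

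Kdm6b, the H3K27 demethylase named in the series title, fell, with overlapping groups. Its levels were 479, 479.8 and 249.7 CPM at day 2, 282, 209.6 and 185 CPM at day 8 and 223, 224 and 259 CPM at hour 0. Replicate 18 was the low library of day 2, and lay below the highest day 8 library. At hour 3, in other mice, it averaged 2685 CPM. The log2 fold change was -0.84 (SE 0.22, edgeR adjusted p = 0.0039), and against hour 0 the day 8 level had one of -0.06 (SE 0.22, edgeR adjusted p = 0.86). With no filter on low counts the fall was -0.25 with an adjusted p of 0.221. Its paralog Kdm6a had 47.6, 48.1 and 40.2 CPM at day 2 and 62.3, 62.1 and 51.2 CPM at day 8 and was not called (edgeR adjusted p = 0.059). Ezh2, the methyltransferase of the same mark, had 21.8, 19.8 and 21.3 CPM and 26.5, 28.7 and 27.2 CPM and was not called either (edgeR adjusted p = 0.24). Of 13 tested writers and erasers of the mark out of 14 listed, Kdm6b was the 1 that fell, and Suz12, Rbbp4 and Rbbp7, components of Polycomb complexes, rose by log2 fold changes of 0.80, 0.96 and 0.98. The list median was 0.26, which became -0.22 with library totals, where 2 were higher and 4 lower.

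Most genes of resting fibroblasts rose in the main test, and most were still below the uninfected level at day 8. Of 25 tested genes of 26 listed, 16 were higher, 4 lower and 5 not called, with a median log2 fold change of 1.12. With library totals 12 were higher and 5 lower, with a median of 0.65. Pdgfra, a growth factor receptor that marks fibroblasts, had 393, 487 and 535 CPM at day 2, 1327, 1018 and 1088 CPM at day 8 and 2153, 1945 and 1854 CPM at hour 0. The log2 fold change was 1.28 (SE 0.17, edgeR adjusted p = 4.8e-06) against day 2 and -0.79 (SE 0.17, edgeR adjusted p = 0.0013) against hour 0. Gsn (gelsolin, which severs actin filaments) had the highest level per length of the list, with 1095, 1019.5 and 1443 CPM at day 2, 6262, 5148 and 6629.5 CPM at day 8 and 22884, 17512 and 17176 CPM at hour 0 (log2 fold change 2.34, SE 0.25, edgeR adjusted p = 3.4e-07). Col15a1, a collagen at basement membranes, had the largest rise of the list, from 404, 430.2 and 519.7 CPM to 2776, 2571 and 2643 CPM (log2 fold change 2.56, SE 0.25, edgeR adjusted p = 7.8e-08), and its difference from hour 0 was not called (log2 fold change -0.56 against hour 0, SE 0.23, edgeR adjusted p = 0.068). Clec3b and Smoc2 rose, with log2 fold changes of 2.45 and 2.14 against day 2, and had -1.55 and -1.83 against hour 0. The genes that fell were Ly6a, Ly6c1, Igfbp6 and Mfap5. Ly6a (Sca-1), also an interferon-responsive gene, went from 323, 291 and 393 CPM to 129, 72.1 and 121 CPM (log2 fold change -1.65, SE 0.21, edgeR adjusted p = 3.1e-06). Against hour 0, 18 of the 25 were lower at day 2 (18.2% of all genes tested) and 16 at day 8, and the median log2 fold change was -1.69 at day 2 and -0.79 at day 8.

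Matrix genes moved in both directions. Of 35 listed extracellular matrix genes, all tested, 15 were higher, 8 lower and 12 not called, with a median of 0.33, which became -0.16 with library totals, where 8 were higher and 13 lower. Nid1 (nidogen), a basement membrane gene and the largest rise of the list, had 356, 332 and 494 CPM at day 2 and 1503, 1321 and 1452 CPM at day 8 (log2 fold change 1.85, SE 0.18, edgeR adjusted p = 8.4e-08), and among the others Lama2, Lamb1, Lamc1, Col4a1 and Col4a2 rose with log2 fold changes of 1.84, 1.47, 0.90, 1.00 and 1.01. The genes that fell were Tnc, Spp1, Col12a1, Col8a1, Postn, Thbs1, Vcan and Fbln2. Tnc (tenascin C, a glycoprotein of wound matrix) had 938, 942 and 1300.3 CPM at day 2, 76.7, 64.7 and 66.1 CPM at day 8 and 21.2, 26.0 and 38.5 CPM at hour 0 (log2 fold change -3.94, SE 0.52, edgeR adjusted p = 3.8e-06), and remained above hour 0 with a log2 fold change of 1.27 (SE 0.48, edgeR adjusted p = 0.046). Spp1 (osteopontin) and Col12a1 had log2 fold changes of -3.58 (SE 0.60, edgeR adjusted p = 5.1e-05) and -2.99 (SE 0.33, edgeR adjusted p = 4.3e-07). The fibrillar collagen genes Col1a1, Col1a2 and Col3a1 were among the highest genes of both groups and were not called: Col1a1 had 4563, 5111 and 6733 CPM and 6345, 5345 and 5957 CPM (log2 fold change 0.11, SE 0.23, edgeR adjusted p = 0.73).

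Among 25 tested matrix-remodelling enzymes and inhibitors of 28 listed, 11 were lower and 6 higher, with a median of -0.75. With library totals 17 were lower and 5 higher, with a median of -1.23. Mmp3 (stromelysin) had 1182, 1116 and 1981 CPM at day 2, 236, 222 and 213 CPM at day 8 and 267, 246 and 198 CPM at hour 0 (log2 fold change -2.67, SE 0.34, edgeR adjusted p = 2.3e-06). Timp1, an inhibitor of metalloproteinases (chrX:20870166-20874735), had 366, 309 and 489 CPM and 11.5, 6.95 and 8.62 CPM (log2 fold change -5.43, SE 0.46, edgeR adjusted p = 1.5e-08), while Timp3, an inhibitor bound to matrix, had 88.2, 101 and 128 CPM and 312, 296 and 358 CPM (log2 fold change 1.61, SE 0.19, edgeR adjusted p = 1.2e-06). Plau (urokinase), which activates plasminogen, rose from 83.3, 61.3 and 58.0 CPM to 199, 240.4 and 251 CPM (log2 fold change 1.77, SE 0.24, edgeR adjusted p = 4.6e-06). Mmp2 (gelatinase A) rose as well, from 609, 588 and 639.7 CPM to 1447, 1413 and 1515 CPM (log2 fold change 1.25, SE 0.19, edgeR adjusted p = 2.0e-05).

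Most contractile genes tested rose, and at day 8 most were not called against uninfected glands. Of 13 tested genes of 14 listed, 10 were higher, 1 was lower (Des) and 2 were not called, with a median log2 fold change of 0.83. Without day 2 replicate 18, 6 were higher, and with library totals 6 were higher and 2 lower. Myh11, the smooth muscle myosin, had 25.3, 31.4 and 40.0 CPM at day 2, 429, 550.1 and 432 CPM at day 8 and 928, 702 and 482 CPM at hour 0, a log2 fold change of 3.86 (SE 0.45, edgeR adjusted p = 7.5e-07) against day 2. Acta2, smooth muscle actin, had 11.0, 20.2 and 22.7 CPM, 165, 235 and 165 CPM and, at hour 0, 269, 224 and 166 CPM (log2 fold change 3.37, SE 0.49, edgeR adjusted p = 1.1e-05). Neither was called against hour 0, with log2 fold changes of -0.58 (SE 0.39, edgeR adjusted p = 0.27) and -0.22 (SE 0.44, edgeR adjusted p = 0.73); these do not show that the levels were alike. Des, an intermediate filament gene, had 40.0, 34.4 and 54.7 CPM and 34.3, 20.9 and 26.9 CPM, and its fall was lost without day 8 replicate 2 or 3, or day 2 replicate 16 or 18 (adjusted p = 0.188, 0.102, 0.065 and 0.155). At day 8 against hour 0, 1 of the 13 was lower, Smtn, and none was higher.

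Markers of mural and myoepithelial cells, which also use contractile genes, were measured beside them. Of 7 tested mural cell genes of 9 listed, 4 were higher and 1 lower, and the summed level of the 9 was 196 to 313 CPM at day 2 and 401 to 426 CPM at day 8, with none at 0 in either group. Their share of all counts overlapped between the groups, at 0.0287%, 0.0270% and 0.0432% at day 2 and 0.0459%, 0.0378% and 0.0374% at day 8 (exact permutation p = 0.3, 0.343 adjusted over 16 shares). Rgs5, a marker of pericytes, had 7.09, 4.47 and 11.3 CPM at day 2, 69.0, 74.0 and 77.2 CPM at day 8 and 7.08, 10.5 and 4.12 CPM at hour 0 (log2 fold change 3.25, SE 0.50, edgeR adjusted p = 2.1e-05), and Mcam, shared by pericytes and endothelium, fell from 74.4, 75.6 and 118 CPM to 20.1, 18.4 and 20.1 CPM (log2 fold change -2.19, SE 0.43, edgeR adjusted p = 0.00028). Krt14, a keratin of myoepithelial and basal cells, had 30.2, 32.3 and 50.7 CPM and 131, 129 and 114 CPM (log2 fold change 1.72, SE 0.47, edgeR adjusted p = 0.0047). The part of such cells in the rise of the contractile genes was not tested.

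**Figure D4:**
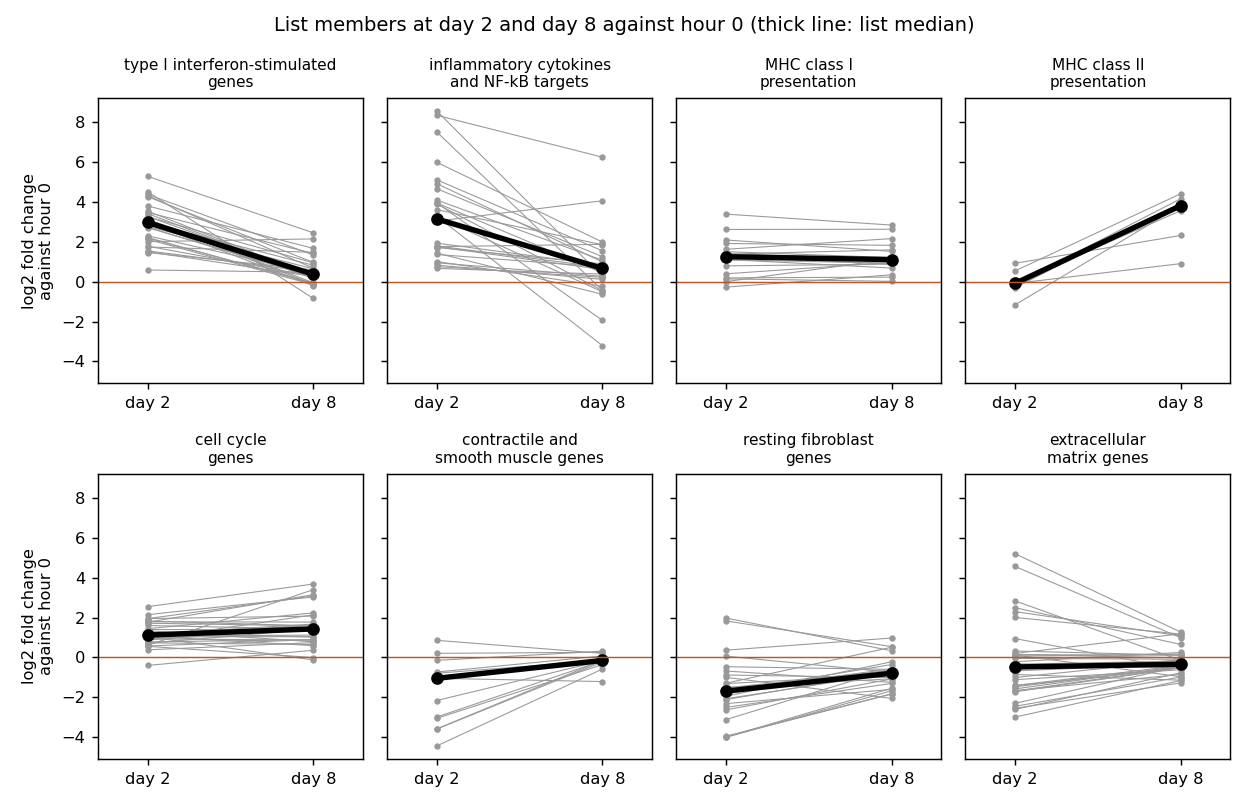
log2 fold change against hour 0 of the tested members of 8 lists, at day 2 and at day 8 (thin lines join the values of 1 gene, thick lines join list medians); both comparisons use the same hour 0 libraries. The medians of the type I interferon list are 2.98 and 0.38, and those of the MHC class I list are 1.26 and 1.11.

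Many cell cycle genes were above the uninfected level at both times. Of 32 tested genes of 36 listed, 6 were higher at day 8, none was lower and 26 were not called, with a median log2 fold change of 0.14, which became -0.35 with library totals, where 2 were higher and 3 lower. Leaving out a library reduced the 6 to 3 (without day 8 replicate 1, day 8 replicate 2 or day 2 replicate 16) or 2 (without day 2 replicate 17 or day 2 replicate 18). Ccnd1 (cyclin D1), which starts the cycle, had 24.97, 21.7 and 33.0 CPM at day 2 and 183, 205 and 167 CPM at day 8 (log2 fold change 2.80, SE 0.27, edgeR adjusted p = 6.5e-08), and Mki67, a marker of dividing cells, had 48.4, 52.0 and 56.9 CPM and 132, 174 and 106 CPM (log2 fold change 1.38, SE 0.30, edgeR adjusted p = 0.00076). At hour 0 their means were 17.5 and 15.3 CPM. Against hour 0, 17 of the 32 were higher at day 2 and 23 at day 8.

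The largest rises of the comparison were in secreted proteins of the gland. All 12 genes with the largest rises by the naming rule were of this kind: Scgb1b27, Scgb2b27, Klk1, Scgb2b26, Pip, Prol1, Car6, Crisp3, Smgc, Mucl2, Lpo and Bpifa2. Several, among them Klk1, Scgb2b26, Crisp3, Smgc and Bpifa2, passed the 5 CPM filter only through the day 8 libraries. The direction of their change, and the counts of rises that include them, are not independent of the filter. Scgb1b27, a secretoglobin (chr7:34021483-34022881), had 31.7, 7.32 and 2.87 CPM at day 2 and 5430.0, 16149 and 18873 CPM at day 8, a log2 fold change of 9.96 (SE 0.83, edgeR adjusted p = 1.1e-08). Mucl2, a mucin-like protein of acinar cells, had 1161, 279 and 224 CPM at day 2, 38995, 99482 and 122239 CPM at day 8 and 30094, 49615 and 67589 CPM at hour 0 (log2 fold change 7.29, SE 0.70, edgeR adjusted p = 7.7e-08). Day 8 replicate 1 was the lowest of its group for both genes, and for Mucl2 the lowest hour 0 library exceeded the highest day 2 library. Of 16 tested acinar and duct secretory genes of 24 listed, 14 were higher and 1 was lower, with a median of 6.14. The 24 genes together took 0.2005%, 0.0605% and 0.0470% of counts at day 2 and 6.42%, 13.5% and 15.3% at day 8, against 6.61% ± 2.36 at hour 0 (SD, n = 3). In an exact permutation test of the share, 3 libraries against 3, p was 0.1, the smallest that this design allows, and 0.133 adjusted over 16 shares.

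Structural epithelial genes rose as well. All 15 tested genes of 16 listed were higher at day 8, with a median log2 fold change of 3.36. Krt18, a keratin of simple epithelium, had 39.6, 18.8 and 39.5 CPM at day 2, 808, 919.8 and 774 CPM at day 8 and 59.4, 75.1 and 141 CPM at hour 0 (log2 fold change 4.67, SE 0.36, edgeR adjusted p = 4.4e-09). Cdh1 (E-cadherin) had 26.8, 16.3 and 21.1 CPM and 313, 390.3 and 351 CPM (log2 fold change 4.04, SE 0.24, edgeR adjusted p = 2.9e-10). Krt18 was above hour 0 at day 8 with a log2 fold change of 3.18 (SE 0.33, edgeR adjusted p = 1.2e-06), as were 11 of the 15 in all, while Mucl2 was not called (log2 fold change 0.82 against hour 0, SE 0.54, edgeR adjusted p = 0.25). The summed level of the 16 genes was 202 to 330 CPM at day 2 and 3147 to 3741 CPM at day 8. The part of these cells in the other differences was not tested.

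Markers of the labelled cell type were high in both groups. The summed level of 8 fibroblast defining genes was 10411 to 14700 CPM at day 2 and 13765 to 16224 CPM at day 8, none at 0, with 2 genes higher (Pdgfra and Lum), 2 lower (Pdpn and Thy1) and 4 not called. Lum (lumican) had 226, 198 and 238 CPM and 598, 522 and 584 CPM (log2 fold change 1.37, SE 0.23, edgeR adjusted p = 5.8e-05). Apart from the gland epithelial genes, summed markers of other cells were below those of fibroblasts in every library. The 18 T and NK cell genes summed to 42.7 to 43.1 CPM at day 2 and 32.5 to 58.5 CPM at day 8, and none of the 4 tested was called. Of 10 tested blood endothelial genes of 12 listed 4 rose, led by Plvap, a protein of fenestrated capillaries (13.2, 8.40 and 6.53 CPM at day 2 and 51.1, 35.8 and 45.9 CPM at day 8, log2 fold change 2.26, SE 0.33, edgeR adjusted p = 9.8e-06). The B and plasma cell genes that were called lower (5 of 6 tested, of 15 listed) were all under 10 CPM on average at day 2, and the restriction to genes counted in the low-background libraries left 1 gene of this list to test, so it gives no check of these calls. The summed level of those 15 was 38.6 to 55.4 CPM at day 2 and 12.1 to 17.0 CPM at day 8, with Iglc1 at 0 at day 8. Neutrophil genes were low at both times, at 26.7 to 38.8 CPM and 7.40 to 14.1 CPM over 11 genes, with Mpo, Cxcr2 and Camp at 0 at day 8. The restriction to genes counted in the low-background libraries left 1 neutrophil gene to test, which was not called, so it gives no check of these lower levels.

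**Figure D5:**
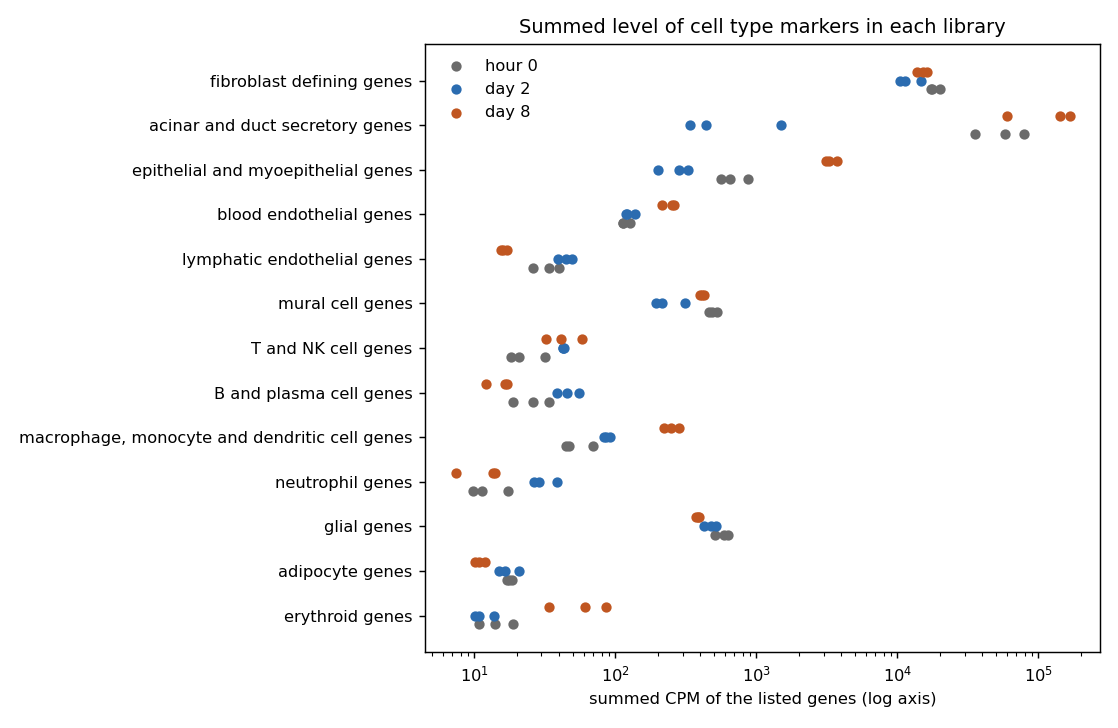
Summed CPM of each list of cell type markers in each library (log axis; 3 points per group, groups by colour). Acinar and duct genes lie at 340 to 1488 CPM at day 2 and at 59621 CPM or more at day 8, while fibroblast genes lie at 10411 CPM or more in all 9 libraries.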

How the data were processed

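RNA was measured in gp38+ cells of Balb/c submandibular glands, 18 libraries in 6 groups of 3, and the 9 of day 2, day 8 and hour 0 enter the comparisons. The values are the whole-number counts per gene that the authors deposited, 1 file per library. Per the submitters' processing notes the tools were FastQC, STAR, Subread and DESeq2 with build mm10; their versions, the annotation release and the handling of strand and of reads with several matches are not given in the sources used here. Gene identifiers were matched to GENCODE M21 (GRCm38), and 55141 of 55401 had a name; the other 260 held 0.0241% of counts.

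Counts were tested with edgeR 4.0.16 in R 4.3.3 (quasi-likelihood test, TMM scaling, Benjamini-Hochberg adjustment, threshold 0.05) in 1 fit over all 18 libraries, on genes with at least 5 CPM in at least 3 of the 6 day 2 and day 8 libraries. The SE of a log2 fold change was taken from the F statistic. Printed CPM values are TMM-scaled, while the filter of 5 CPM used library totals without TMM factors. Depth was 4398234 to 6313619 counts at day 2 and 12033146 to 15234431 at day 8; intervals, with a level of 95%, and floors cover counting error only. Shares were compared with a two-sided exact permutation test (scipy 1.17.1). The fit was tested on simulated data.

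Genes were named by a rule: the 12 largest rises and 12 largest falls among called genes whose groups did not overlap, with at least 10 CPM in the higher group and, for falls, 10 times the receptor gene background; the largest rise, the largest fall and the highest level per length of each list; and Il6, Ccl19, Cxcl13, Pdgfra, Pdpn, Ezh2 and both Kdm6 demethylases, Kdm6a and Kdm6b. Some genes that the rule names are not reported here. Other list members named as examples were chosen after their values were seen. The members and lists were chosen with earlier results of these data known. Alternatives were other filters, DESeq2 1.42.0, limma 3.58.1 (voom), other scalings, a subtracted background and leaving out each library.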

Additional observations from a re-analysis of the deposited data

How the results depend on the processing

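No paired analysis was possible because the groups share no replicate number. The counts of called genes moved by over 1.5 times where the filter or the scaling was changed. With edgeR's filterByExpr, 4968 of 27525 genes were higher and 11928 lower at day 8 than at day 2 (29.4% of called genes higher against 49.2% in the main test), and 12076 were called at day 8 against hour 0. With no filter the numbers were 6601 and 14523 of 47602 genes (31.3% higher), and 12835 were called against hour 0. At 20 CPM, where 7568 genes were tested, they were 1951 and 1997, and 2612 against hour 0. With library totals 1439 were higher and 5703 lower (20.2% of called genes higher). TMM factors were 1.35 to 1.38 at day 2 and 0.914 to 1.08 at day 8, and which scaling is closer to the true balance was not tested. Fold changes moved at the median by 0.27, 0.58, -0.20 and -0.49 on the log2 scale in these 4 settings. DESeq2, limma-voom, only the groups compared, a subtracted background and mitochondrial genes left out gave 2778 to 3862 higher and 3239 to 4512 lower genes, and leaving out 1 library gave 2306 to 2933 higher and 2824 to 3385 lower.

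Of the results for named genes and lists, 2971 stood on the same side of their threshold or within the limits set for counts, 78 lost and 21 gained a call, 227 moved and 4 reversed. The 4 were Hspd1 with library totals, at -0.11, and Hsp90b1, B2m and H2-T22 with no filter, at 0.54, 0.42 and 0.0074; the cause was not tested. DESeq2 gave no adjusted p for H2-Aa, H2-Ab1 and H2-Eb1, so it called 2 class II genes higher. The call of C3 was lost without day 2 replicate 17 (adjusted p = 0.0525), as were those of Rplp1 and Hsd17b7. The smaller depth of day 2 and its background limit what can be said of genes under 5 CPM.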

Other observations

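Several other gene groups held calls at shares near or below those of all genes tested (24.3% higher and 25.2% lower), with single genes that changed. Of 24 listed immediate-early genes, all tested, 6 were higher and 8 lower, with a median log2 fold change of -0.12; scaling by library totals gave 2 higher and 10 lower, leaving out day 2 replicate 17 or 18 gave 3 or 2 higher, and leaving out day 8 replicate 3 gave 5 lower. Without day 2 replicate 16 the median was 0.03. Atf3, a stress-induced transcription factor, had 237, 240.0 and 192 CPM at day 2 and 748, 794 and 687 CPM at day 8 (log2 fold change 1.74, SE 0.27, edgeR adjusted p = 2.4e-05), while Nr4a2, an orphan nuclear receptor, had 266, 228 and 132 CPM and 56.3, 44.9 and 35.2 CPM (log2 fold change -2.20, SE 0.24, edgeR adjusted p = 3.7e-07). Of 13 tested unfolded protein response genes of 14 listed, 2 were higher and 3 lower, with 10 lower under library totals and 5 lower without day 2 replicate 17. Asns, which makes asparagine, rose from 16.7, 10.2 and 12.4 CPM to 51.0, 97.7 and 96.3 CPM (log2 fold change 2.65, SE 0.28, edgeR adjusted p = 2.9e-07). Of 12 heat-shock genes 1, Hspd1, was higher and 3 lower, with a median of 0.25 that became -0.23 with library totals and -0.08 without day 2 replicate 18. Without day 2 replicate 16, 4 were higher and 1 lower, and without day 8 replicate 2, 1 was lower. The call of Hspd1 was lost in most settings.

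Among 20 glycolysis and hypoxia genes 3 were higher and 6 lower, with 12 lower under library totals. Slc16a3, a lactate exporter, went from 19.9, 15.3 and 18.9 CPM to 2.31, 2.34 and 2.95 CPM (log2 fold change -2.82, SE 0.37, edgeR adjusted p = 3.3e-06), Hk2 (hexokinase) had a log2 fold change of -1.37 (SE 0.23, edgeR adjusted p = 5.0e-05), and Egln3, an oxygen-sensing hydroxylase, rose from 2.70, 2.85 and 0.573 CPM to 12.1, 15.3 and 19.1 CPM (log2 fold change 2.95, SE 0.63, edgeR adjusted p = 0.00055). Slc16a3 passed the 5 CPM filter only through the day 2 libraries, and Egln3 only through those of day 8. Of 18 tested cholesterol synthesis genes of 20 listed, 2 were higher and 3 lower, and the 3 became 9 with library totals, 0 without day 2 replicate 17, 1 without day 8 replicate 3 and 6 without day 2 replicate 18. Insig1, which holds back sterol synthesis, rose from 25.5, 31.6 and 13.2 CPM to 48.8, 56.5 and 77.9 CPM (log2 fold change 1.39, SE 0.27, edgeR adjusted p = 0.00022).

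Ribosomal protein genes were higher in 31 of 47 tested (48 listed) and lower in none, with a median of 0.60; 16 were higher without day 2 replicate 17 and 5 with library totals. Of 8 tested mitochondrially encoded protein genes of 13 listed, 7 were higher and 1, mt-Nd6, was lower; it lies on the other strand from the rest, and whether strand was used in counting is not given in the sources used here. Of 11 tested complement genes of 14 listed, 4 were higher and 3 lower, with 1 higher without day 2 replicate 17, 2 without day 2 replicate 18 or day 8 replicate 1, and 0 with library totals. Without day 8 replicate 2 the median of -0.10 became 0.07. C3, the central component, had 3186, 2516 and 3382 CPM at day 2 and 8167, 4402 and 6626 CPM at day 8 (log2 fold change 1.08, SE 0.30, edgeR adjusted p = 0.0052).

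Lists of rarer cells held few tested genes. Of 8 tested glial genes of 10 listed, 3 were lower, among them Foxd3, from 14.0, 13.3 and 17.3 CPM to 1.00, 1.13 and 1.51 CPM. Of 3 tested lymphatic endothelial genes 2 were lower, Prox1 and Reln, and the call of Prox1 was lost with the background subtracted. Csf3r, the 1 neutrophil gene called, was lower (log2 fold change -2.56, SE 0.64, edgeR adjusted p = 0.0023). The restriction to genes counted in the low-background libraries left 1 neutrophil gene to test, at a log2 fold change of 0.17, and gives no check of the fall of Csf3r. Among 3 tested erythroid genes 2 were higher, Hba-a2 and Hbb-bs, the latter with 0.169, 0.949 and 0 CPM at day 2 and 41.7, 29.5 and 16.7 CPM at day 8. Hbb-bs, and likewise Fabp4 below, passed the 5 CPM filter only through the day 8 libraries. Fabp4, the 1 adipocyte gene tested, was higher (log2 fold change 1.74, SE 0.69, edgeR adjusted p = 0.042), a call that was lost in 9 other settings. The summed level of the 7 listed adipocyte genes went the other way, at 15.0 to 20.9 CPM at day 2 and 10.1 to 11.9 CPM at day 8, with Cidec at 0 at day 8. At such levels the background of day 2 weighs in the sum. For Fabp4 it was estimated at 1.00 CPM of a day 2 mean of 2.14 CPM. The part of the background in the lower sum was not tested.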
